A study of Mus musculus with 12 samples.

Results

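Kidney endothelial genes were described here through 10 named genes of the 36186 in the deposited counts, each chosen by its symbol and each found. Pecam1, Cdh5, Kdr, Flt1, Tek, Tie1, Emcn and Plvap were taken as the 8 pan-endothelial genes, Ehd3 as the gene of the glomerular endothelium, and Sox17 as the gene of the arterial endothelium. The libraries come from a study of Hox genes in the developing kidney, with mutants of Hox9, Hox10 and Hox11 genes of the Hoxa and Hoxc clusters. Whole kidneys were taken from mouse embryos of a mixed background at E18.5, and their RNA was sequenced from both ends as Illumina TruSeq libraries, 3 for each of 4 genotypes. Each library carries a number of its own in the labels and was taken as a replicate.

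The groups are named as in the labels. WT is wild type. AkCh is Hoxa9,10,11-/- HoxC9,10,11+/-, with both copies of the Hoxa genes and 1 copy of the Hoxc genes mutated. AhCk is Hoxa9,10,11+/- HoxC9,10,11-/-, the reciprocal genotype. AkCk is given in the labels as Hoxa9,10,11-/- HoxC9,10,11-/-, whereas the text of the study describes the sequenced mutants as Hoxa9,10-/- with Hoxa11 either +/- or +/+, together with Hoxc9,10,11-/-. The study also reports that embryos homozygous for all of these Hoxa and Hoxc mutations had no kidney to be found at E18.5. By its text the sequenced AkCk kidneys thus kept at least 1 copy of Hoxa11, against their label. Which Hoxa11 alleles belong to AkCk_24, AkCk_27 or AkCk_29 is not told by the labels, and the 3 form 1 group here. The mutant alleles are frameshifts made in the first exon of each gene, in every cell of the embryo. RNA of mutated genes was still counted in AkCk, as given below for Hoxc10. The RNA level of these genes was not used to tell the genotype. AhCk has a sequencing run of its own, apart from that of the other 9 libraries, so wherever AhCk is compared with another group genotype and run cannot be told apart.

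Endothelial cells line all vessels of the kidney, from the arteries to the fenestrated capillaries of the glomerulus, where they face the podocytes across a shared basement membrane. Podocytes make vascular endothelial growth factor A, which acts on the receptors Kdr and Flt1 of nearby endothelium. The angiopoietins act on a further receptor, Tek, with Tie1 as its partner, and tune how stable a vessel is. Arteries, veins, lymphatics and glomerular capillaries each switch on genes of their own over a program that all endothelium shares.

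Counts on genes ranged from 28616878 in AkCh_20 to 47067926 in AhCk_110, with a median of 39328507 over the 12 libraries. The 10 genes together were well covered, from 12588 counts of Sox17 to 93292 counts of Cdh5 over the 12 libraries, and all 10 passed the filter on low counts in all 4 comparisons. Expression is given as CPM, a gene's counts scaled to a common library size by TMM normalization over the 12 libraries. Log2 fold changes come from edgeR's quasi-likelihood test on the 6 libraries of each comparison, with p-values adjusted over all genes tested and a threshold of 0.05. SE is the standard error of a log2 fold change.

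AkCh_20 stood apart from the other 11 libraries, in ways the labels do not give. In the authors' normalized log2 values, which are centred on 0 for each gene, its standard deviation over 13806 well counted genes was 0.757, against 0.263 to 0.493 in the others. Its values followed transcript length across genes, with a median of 0.45 in the shortest of 5 length classes and -0.35 in the longest, while the class medians of the other libraries lay between -0.09 and 0.12. Its 100 most abundant genes took 19.6% of its counts, against 14.0% to 15.9% elsewhere. The endothelial genes were split in this library. Kdr was at -0.999, Flt1 at -0.91 and Pecam1 at -0.63 on this log2 scale, whereas Emcn was at 0.51, Plvap at 0.47 and Sox17 at 0.43. Main results with AkCh are therefore given with and without AkCh_20, and DESeq2 was run only with it.

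**Figure D1:**
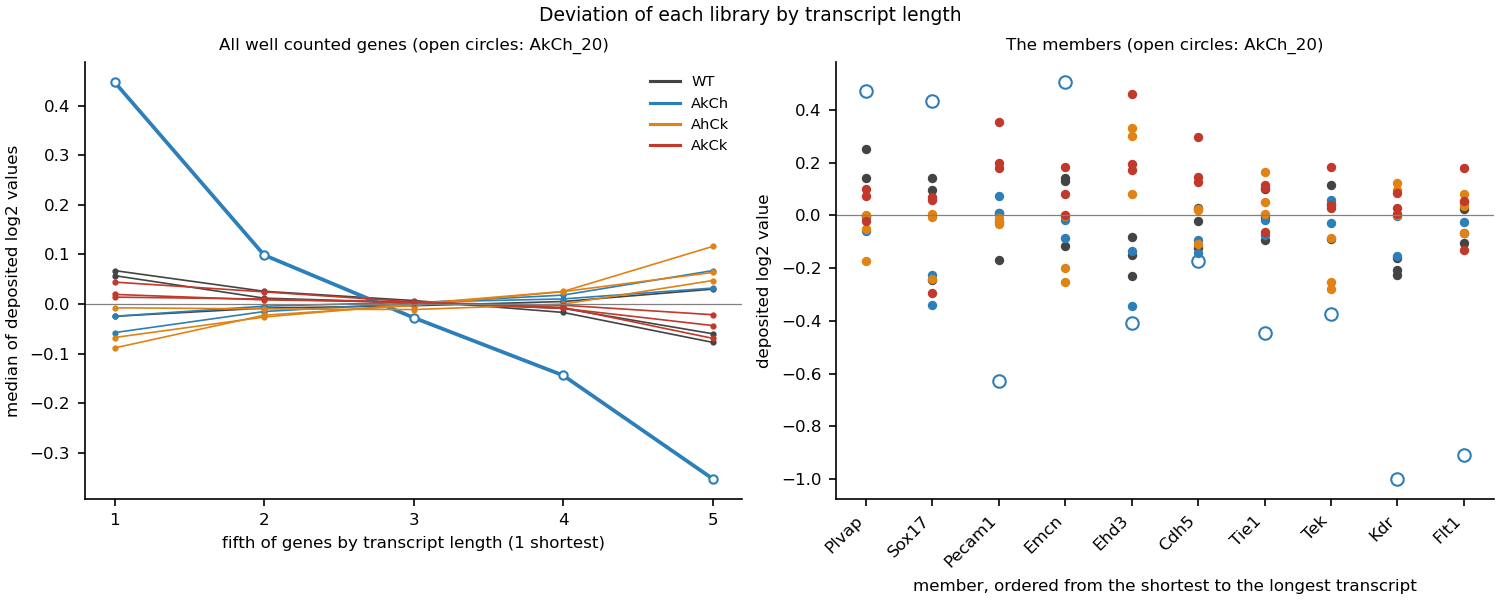
Authors' normalized log2 values in each of the 12 libraries, as medians of 5 classes of genes by transcript length (left) and for each of the 10 genes, ordered by length (right). Open circles are AkCh_20. AkCh_20 runs from 0.45 in the shortest class to -0.35 in the longest, and its endothelial genes spread from -0.999 to 0.51.

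The groups were also unequal in sex. Y-linked genes were expressed, and Xist was nearly absent, in all 3 WT libraries and in AkCh_20, AhCk_38, AhCk_115 and AkCk_24. Xist, the RNA that silences an X chromosome in females, was expressed in AkCh_31, AkCh_33, AhCk_110, AkCk_27 and AkCk_29. Values within 1 sex are given below for the gene that passed the test. Of the mutated genes, Hoxc10 had 50.2, 58.8 and 66.9 CPM in WT and 37.8, 29.1 and 35.8 CPM in AkCk. Hoxc10 fell by 0.78 on the log2 scale in AkCk (SE 0.14, adjusted p = 0.0127), and Hoxa10 fell by 0.49 (SE 0.11, adjusted p = 0.0270). These calls held in 12 and 8 of 16 alternatives. Hoxc10 lost its call without WT_37 (adjusted p = 0.0583), and Hoxa10 without WT_37, WT_55, AkCk_24 or AkCk_27 (adjusted p = 0.108, 0.0904, 0.0942 and 0.0736). On the 9 libraries of 1 run with Xist as a covariate Hoxc10 was at -0.18 (adjusted p = 0.709). In AkCh_20 Hoxc10 was at 121 CPM, above every other library.

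Markers of kidney cell types were present in WT, where the podocyte list of 7 genes summed to 1313 ± 41.3 CPM (SD, n = 3), the list of kidney epithelium to 2306 ± 349 CPM (SD, n = 3), and the 8 pan-endothelial genes to 1033 ± 48.7 CPM (SD, n = 3). Genes of liver and liver sinusoid summed to 1.75 to 4.62 CPM in WT, and adrenal genes to 3.85 to 5.02 CPM. RNA was taken from whole kidneys, so fewer endothelial cells and less RNA per endothelial cell cannot be told apart in any value below.

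Levels were compared between genes only as CPM per kilobase of exon, in WT. Plvap, which builds the diaphragms of fenestrae and caveolae, had the highest level, 85.0 ± 7.31 CPM per kilobase (SD, n = 3). Cdh5, the cadherin of endothelial junctions, followed at 45.8 ± 2.32 CPM per kilobase. Tie1 was at 26.6 ± 1.74 CPM per kilobase and Pecam1, an adhesion molecule of the same junctions, at 26.0 ± 1.68 CPM per kilobase. These last levels did not differ beyond their spread. Emcn, a sialomucin of capillaries and veins, and Tek were both at 18.1 CPM per kilobase, with standard deviations of 1.75 and 1.27. Kdr, the main signalling receptor for vascular endothelial growth factor A, was at 14.4 ± 0.313 CPM per kilobase. Ehd3, a membrane trafficking protein that in the kidney marks glomerular endothelium, was at 7.28 ± 0.355 CPM per kilobase. Sox17, a transcription factor of arterial fate, was at 5.81 ± 0.807 CPM per kilobase and Flt1, the receptor that binds the same ligand with high affinity and weak signalling, at 4.82 ± 0.215 CPM per kilobase. The ranges of Sox17 and Flt1 overlapped, as did those of Emcn and Tek. This scale takes the exons of all annotated transcripts. Per kilobase of the longest transcript, Plvap was again highest at 85.0, followed by Cdh5 at 48.2 and Pecam1 at 47.1 with overlapping ranges. Tie1 was at 30.9, Emcn at 27.9, Kdr at 22.0, Tek at 18.3, Ehd3 at 13.0, Flt1 at 9.44 and Sox17 at 8.55. The order below Cdh5 thus depends on which length is used.

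RefSeq promoter windows of GRCm38.p6, 250 bases before to 50 after the start, were found for 6 of the 10 genes (Kdr, Flt1, Tek, Tie1, Emcn and Ehd3). They were searched on both strands for AGGAAG, a core of the ETS family whose members are widely used in endothelium, for AGATAA of the GATA family, and for TTTATNG of the posterior Hox family. AGGAAG was in 4 of the 6 windows and in 35.4% of 32851 windows of the same length. AGATAA was in 1, that of Tek, and in 11.2% of all windows. TTTATNG was in 1, that of Emcn, and in 10.9% of all windows. A match is a description of letters and not a site. Shown are the window of Ehd3, the only one of the 10 genes past the threshold in any comparison by the main test, at chr17:73804591-73804890 on the plus strand, and that of Kdr, the receptor without overlap between AkCk and WT, at chr5:75978406-75978705 on the minus strand. The window of Emcn, at chr3:137340828-137341127 on the plus strand, is the one that holds the Hox letters. Capitals mark AGGAAG or TTTATNG, or their reverse complements. In Ehd3 the first base of the match lies at position 6 after the start.
Ehd3: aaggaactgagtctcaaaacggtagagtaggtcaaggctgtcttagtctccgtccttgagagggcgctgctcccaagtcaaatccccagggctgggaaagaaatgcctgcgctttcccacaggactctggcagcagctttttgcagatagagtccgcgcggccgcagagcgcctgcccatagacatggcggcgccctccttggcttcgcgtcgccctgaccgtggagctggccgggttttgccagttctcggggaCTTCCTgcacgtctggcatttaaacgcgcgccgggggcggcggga
Kdr: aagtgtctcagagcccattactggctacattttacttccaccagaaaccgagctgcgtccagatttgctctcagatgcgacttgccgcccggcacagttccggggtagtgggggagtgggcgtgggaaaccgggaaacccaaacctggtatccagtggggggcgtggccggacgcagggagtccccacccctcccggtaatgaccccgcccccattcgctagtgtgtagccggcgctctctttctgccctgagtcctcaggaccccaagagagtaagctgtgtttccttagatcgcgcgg
Emcn: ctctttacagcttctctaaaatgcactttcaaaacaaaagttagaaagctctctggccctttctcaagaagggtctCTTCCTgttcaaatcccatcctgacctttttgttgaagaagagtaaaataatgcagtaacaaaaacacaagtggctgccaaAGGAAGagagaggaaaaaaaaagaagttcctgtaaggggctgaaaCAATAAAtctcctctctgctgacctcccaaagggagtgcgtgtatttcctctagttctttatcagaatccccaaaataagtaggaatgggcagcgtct

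The first comparison, AkCk against WT, sets mutants of both clusters, whose Hoxa11 alleles the labels do not settle, beside wild type, and both groups come from the same run. Ehd3 rose in AkCk and was the only one of the 10 genes past the threshold (1 of 10, against 13.7% of 15839 genes tested). The count over all genes, 2171, was 535 without WT_37, 633 without WT_55, 793 without AkCk_24, 1101 without AkCk_27 and 3386 without WT_30. Pecam1, Cdh5 and Kdr were higher in every AkCk library than in any WT library but did not pass the test, and the other 6 overlapped. With Ehd3, groups without overlap were counted for 4 of the 10 genes, all higher in AkCk, against 38.1% of all genes tested, or 17.2% higher and 20.9% lower. No test of the 10 genes as a group was run.

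Ehd3 had 45.4, 50.01 and 47.8 CPM in WT_30, WT_37 and WT_55 and 72.8, 60.1 and 59.4 CPM in AkCk_24, AkCk_27 and AkCk_29. All 3 AkCk libraries lay above all 3 WT libraries, with AkCk_24 the highest of the 12. This is a fold of 1.34, or 0.42 on the log2 scale (SE 0.10, adjusted p = 0.0302). AkCk_24, the AkCk library in which Y-linked genes were expressed as in WT, had 72.8 CPM of Ehd3 against at most 50.01 in WT. Over 16 alternatives the log2 fold change of Ehd3 lay between 0.32 and 0.48 and its adjusted p between 0.00265 and 0.102, past the threshold in 9 of the 16. Without AkCk_24 the log2 fold change was 0.32 and the adjusted p 0.0808, without WT_37 the adjusted p was 0.0847, and without WT_55 it was 0.100.

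The junction genes were Pecam1 and Cdh5. Pecam1 had 167, 169.6 and 150.1 CPM in WT_30, WT_37 and WT_55 and 193, 214 and 189.7 CPM in AkCk_24, AkCk_27 and AkCk_29. Its log2 fold change was 0.29 (SE 0.08, adjusted p = 0.0543). Cdh5 had 182, 201 and 195 CPM in the same order in WT and 217, 240.0 and 214 CPM in AkCk, or 0.22 higher on the log2 scale (SE 0.08, adjusted p = 0.107). For both genes the lowest AkCk library was AkCk_29 and the highest AkCk_27, and each of them was above every WT library. With DESeq2, Pecam1 was past the threshold (adjusted p = 0.0144). Over 16 alternatives its log2 fold change ran from 0.059 to 0.34 and its adjusted p from 0.0144 to 0.832.

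Of the receptors, Kdr had 129.8, 133 and 128 CPM in WT_30, WT_37 and WT_55 and 149.7, 151 and 157 CPM in AkCk_24, AkCk_27 and AkCk_29. The groups did not overlap, and the log2 fold change was 0.23 (SE 0.06, adjusted p = 0.0531). DESeq2 put Kdr past the threshold (adjusted p = 0.0157), while a fit on the 9 libraries of 1 run, AkCh_20 among them, gave 0.23 (adjusted p = 0.611). A fit on all libraries but AkCh_20, chosen after seeing the data, gave 0.22 (adjusted p = 0.0272). With Xist as a covariate added to the fit on the 9 libraries, Kdr was at -0.07 (adjusted p = 0.843) and Pecam1 at 0.059 (adjusted p = 0.832). Of its AkCk and AkCh libraries, AkCk_24 and AkCh_20 were those without Xist, so this fit rests in part on the library that stood apart. Flt1 ran from 62.6 to 68.3 CPM in WT and from 61.0 to 75.5 CPM in AkCk, Tek from 78.6 to 90.3 and from 85.0 to 93.9 CPM, and Tie1 from 122 to 139 and from 124 to 140.1 CPM. Their log2 fold changes were 0.08, 0.05 and 0.04, with overlapping groups. Emcn ran from 87.2 to 104 CPM in WT and from 93.5 to 106 CPM in AkCk, and Plvap from 154 to 183 and from 151 to 164 CPM. These groups overlapped too, at log2 fold changes of 0.02 and -0.09.

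Sox17 had 23.3, 29.4 and 30.4 CPM in WT_30, WT_37 and WT_55 and 22.4, 28.6 and 28.5 CPM in AkCk_24, AkCk_27 and AkCk_29. Each group held 1 low library, WT_30 and AkCk_24, and the groups overlapped. Its log2 fold change was -0.07 (SE 0.14, adjusted p = 0.764). The median log2 fold change of the 8 pan-endothelial genes was 0.06, beside -0.01 over all genes tested, with 7 of the 8 above 0. Leaving out each library in turn gave this median from 0.022 to 0.11. Relative to the median of 0.06, Ehd3 was higher by 0.36 and Sox17 was at -0.13, as a description without a test. With each library left out, these differences ran from 0.24 to 0.45 for Ehd3 and from -0.24 to -0.043 for Sox17.

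**Figure D2:**
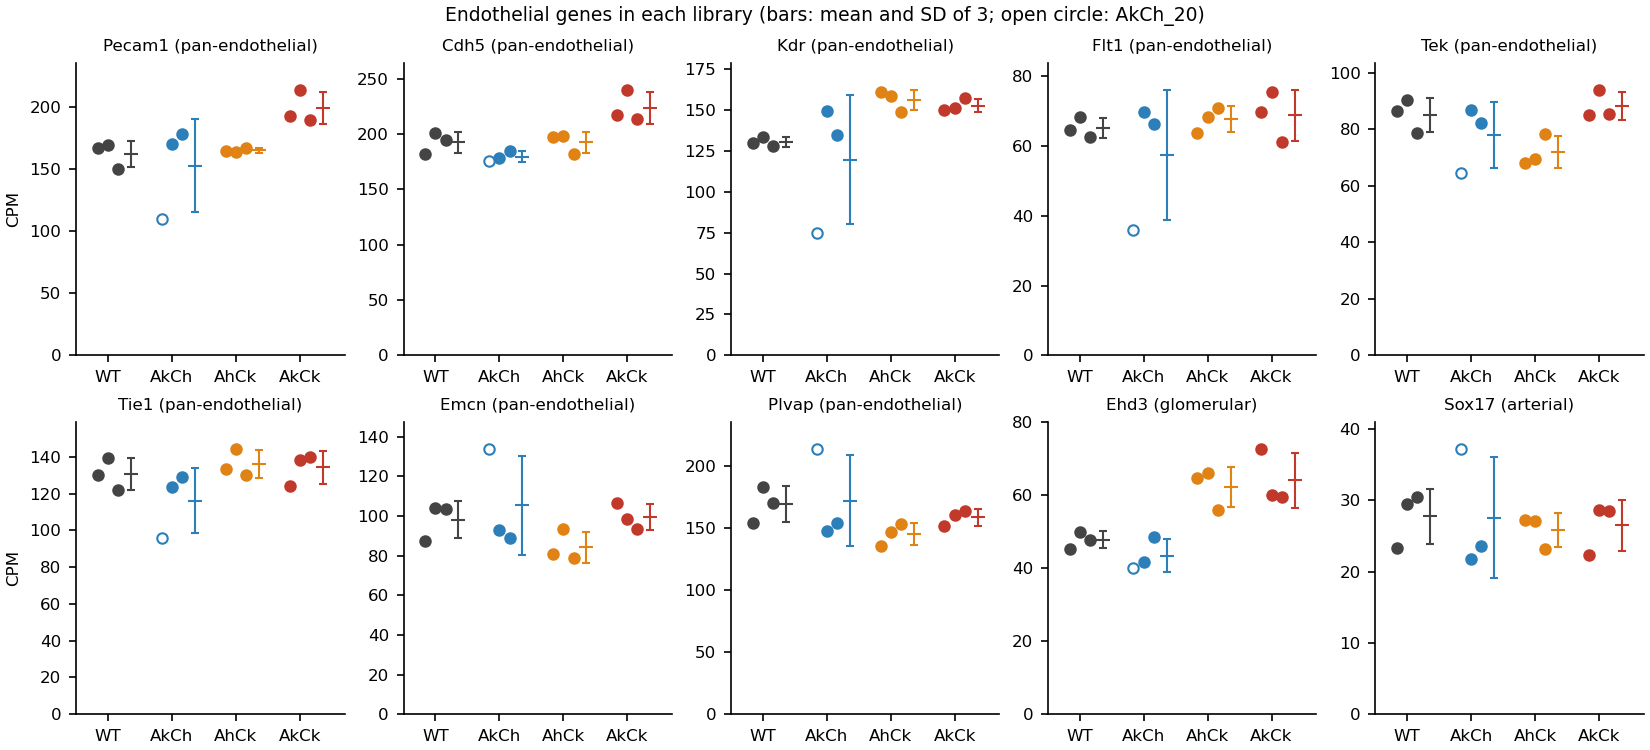
CPM of each of the 10 genes in each of the 12 libraries, by genotype, as points (open for AkCh_20) with the group mean and standard deviation. Ehd3 lies at 59.4 to 72.8 CPM in AkCk and 45.4 to 50.01 CPM in WT without overlap, while Sox17 overlaps in all groups.

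The second comparison, AkCh against WT, asks what loss of Hoxa with 1 Hoxc copy left does, within the same run. None of the 10 endothelial genes passed the test by edgeR or by DESeq2, and 0 had an unadjusted p under 0.05. edgeR called 0 of 15789 genes (0%), with 360 at an unadjusted p under 0.05, DESeq2 called 18, and edgeR called 8 without AkCh_20. Of these 8, 5 were Xist and the Y-linked genes, as AkCh_31 and AkCh_33 expressed Xist and it was nearly absent in WT. Without AkCh_20, genotype and sex thus cannot be told apart in this comparison. Groups without overlap made up 8.33% of all genes and were found for 0 of the 10. Without AkCh_20 they made up 32.9% of all genes and 3 of the 10, with Pecam1 higher in AkCh and Plvap and Sox17 lower, by the CPM of the 5 libraries. Ehd3 had 40.1, 41.8 and 48.4 CPM in AkCh_20, AkCh_31 and AkCh_33, against 45.4 to 50.01 CPM in WT. The groups overlapped through AkCh_33, with a log2 fold change of -0.14 (SE 0.11, adjusted p = 1.00) and of -0.09 without AkCh_20 (adjusted p = 0.638).

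Kdr had 74.9, 149 and 135 CPM in AkCh_20, AkCh_31 and AkCh_33, and Pecam1 had 109.5, 169.7 and 178 CPM. In both, AkCh_20 was the lowest of the 12 libraries and the other AkCh libraries were at or above the highest WT library by the CPM over 12 libraries. The log2 fold change of Kdr was -0.12 with AkCh_20 and 0.12 without it, and that of Pecam1 was -0.09 with it and 0.10 without it. Plvap had 214, 148 and 154 CPM, and Sox17 had 37.2, 21.8 and 23.6 CPM, in the same order. Here AkCh_20 was the highest library of the 12. The log2 fold change of Plvap was 0.02 with AkCh_20 and -0.17 without it (adjusted p = 0.444). The log2 fold change of Sox17 was -0.01 with AkCh_20 and -0.30 without it (adjusted p = 0.431). The median of the 8 pan-endothelial genes was -0.11, beside 0.03 over all genes, and -0.03 without AkCh_20, beside -0.01.

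The third comparison, AhCk against WT, is the reciprocal one, in which genotype and run cannot be told apart. Ehd3 and Kdr had groups without overlap and were higher in AhCk, Plvap was without overlap and lower, and none of the 10 passed the test. edgeR called 376 of 15902 genes (2.36%) and 0 of the 10. It called 60 genes without WT_37, 70 without WT_55, 63 without AhCk_110 and 99 without AhCk_115. Of the 10, 4 had an unadjusted p under 0.05 (Kdr, Tek, Plvap and Ehd3), against 21.1% of all genes, and DESeq2 called 2, Ehd3 and Kdr, against 8.17% of 15710 genes. Groups without overlap, by the CPM of the 6 libraries, made up 26.6% of all genes and 3 of the 10. Ehd3 had 55.9, 64.7 and 66.1 CPM in AhCk_38, AhCk_110 and AhCk_115, against 45.4 to 50.01 CPM in WT. The lowest AhCk library was above the highest WT library, and the log2 fold change was 0.39 (SE 0.09, adjusted p = 0.0660). The 7 glomerular endothelial genes other than Ehd3, taken up below, had a median of -0.25 here. Of these, 2 were above 0 and none passed the test. They summed to 766, 717 and 778 CPM in AhCk_38, AhCk_110 and AhCk_115, below the 790 to 888 CPM of WT. Whether the Ehd3 difference is as large in AhCk as in AkCk was not tested.

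Kdr had 149, 161 and 158 CPM in AhCk_38, AhCk_110 and AhCk_115, above the 128 to 133 CPM of WT. Its log2 fold change was 0.27 (SE 0.07, adjusted p = 0.0829), and 0.13 after a correction for GC content and length (adjusted p = 0.485). Tek had 78.3, 68.0 and 69.5 CPM and Plvap had 153, 135 and 147 CPM in the same order. Both were lowest in AhCk_110 and just under the lowest WT library in AhCk_38, and Tek overlapped with WT only by the CPM of the 6 libraries. They had log2 fold changes of -0.23 (adjusted p = 0.180) and -0.21 (adjusted p = 0.225). Emcn ran from 78.7 to 93.1 CPM and overlapped with WT (log2 fold change -0.21, adjusted p = 0.279). Pecam1, Cdh5, Flt1, Tie1 and Sox17 lay between -0.09 and 0.07. The pan-endothelial median was 0.02, beside 0.01 over all genes tested.

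The fourth comparison, AkCk against AkCh, sets AkCk beside mutants that keep 1 copy of the Hoxc genes, within the same run. By the text of the study AkCk kept at least 1 copy of Hoxa11, while AkCh by its label kept none. A difference between these groups is therefore not that of the last Hoxc copy alone. Pecam1, Cdh5, Kdr and Ehd3 were higher in every AkCk library than in any AkCh library (4 of 10, against 22.5% of all genes, or 11.3% higher), and none passed the test. Without AkCh_20, Emcn and Plvap were without overlap as well, which made 6 of 10, all higher, against 44.0% of all genes, or 22.1% higher. edgeR called 0 of 15764 genes (0%), with 1787 at an unadjusted p under 0.05, among them 2 of the 10, Cdh5 and Ehd3. DESeq2 called 489 genes, 1 of the 10 among them, and edgeR called 687 without AkCh_20, 0 of the 10 among them. Ehd3 had 59.4 to 72.8 CPM in AkCk and 40.1 to 48.4 CPM in AkCh, a log2 fold change of 0.58 (SE 0.13, adjusted p = 0.225). Without AkCh_20 the log2 fold change of Ehd3 was 0.53 (SE 0.12, adjusted p = 0.0542). DESeq2 put Ehd3 past the threshold (adjusted p = 0.0241), and over 15 alternatives its adjusted p ranged from 0.0241 to 0.694.

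Cdh5 had 214 to 240.0 CPM in AkCk and 175 to 185 CPM in AkCh, and its AkCh libraries, AkCh_20 included, lay close together. Its log2 fold change was 0.33 (adjusted p = 0.356), and 0.32 without AkCh_20 (adjusted p = 0.0752). Pecam1 moved more with that library, from 0.40 to 0.22 without it (adjusted p = 0.499 and 0.175), and Kdr from 0.37 to 0.13. Sox17 changed sign, from -0.04 with AkCh_20 to 0.25 without it. The pan-endothelial median was 0.25, and 0.12 without AkCh_20, beside -0.01 and 0.00 over all genes tested.

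**Figure D3:**
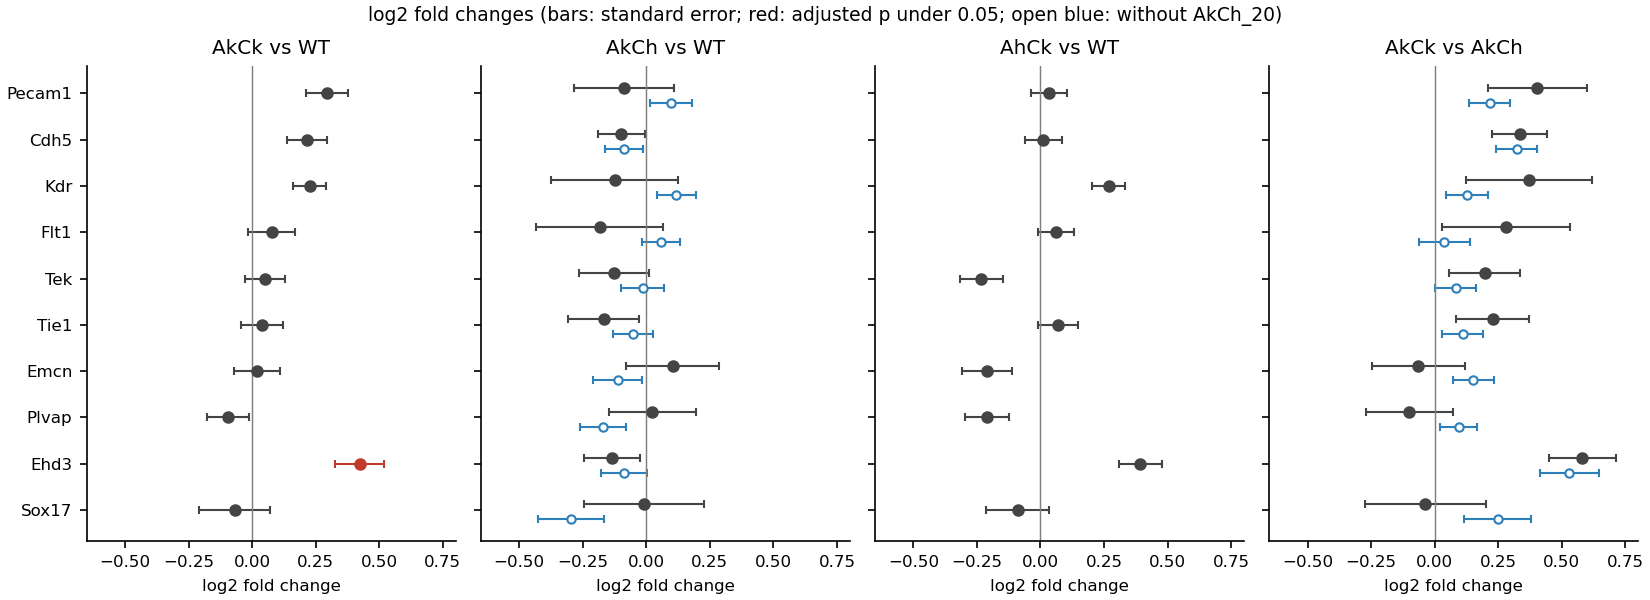
Log2 fold change of each of the 10 genes in the 4 comparisons, with its standard error. Red marks an adjusted p under 0.05 and open circles a fit without AkCh_20. Ehd3 is at 0.42 in AkCk against WT, 0.39 in AhCk against WT and 0.58 in AkCk against AkCh, and at -0.14 in AkCh against WT.

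Set against the pan-endothelial genes of the same library, Ehd3 separated the genotypes in the same way. Its CPM was 4.54%, 4.59% and 4.74% of the summed CPM of the 8 genes in WT_30, WT_37 and WT_55, and 6.64%, 5.13% and 5.37% in AkCk_24, AkCk_27 and AkCk_29. It was 5.54%, 6.45% and 6.34% in AhCk_38, AhCk_110 and AhCk_115, and 4.44%, 4.10% and 4.76% in AkCh_20, AkCh_31 and AkCh_33. All AkCk and AhCk libraries were above all WT and AkCh libraries, and AkCh overlapped with WT. Sox17 took 2.68 ± 0.343% of the same sum in WT and 2.35 ± 0.280% in AkCk (SD, n = 3 each), with overlapping libraries.

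Podocyte genes, as a sum, were also higher in AkCk than in WT. The podocyte list of 7 genes, led by Podxl, summed to 1267, 1347 and 1324 CPM in WT_30, WT_37 and WT_55 and to 1832, 1945 and 1577 CPM in AkCk_24, AkCk_27 and AkCk_29, with no gene of the list at 0. It summed to 1544, 1389 and 1484 CPM in AhCk_38, AhCk_110 and AhCk_115, and to 806, 1442 and 1339 CPM in AkCh_20, AkCh_31 and AkCh_33. As a share of the podocyte sum, Ehd3 was at 3.63 ± 0.0686% in WT and 3.61 ± 0.461% in AkCk (SD, n = 3 each). AkCk ran from 3.09% to 3.97% and WT from 3.58% to 3.71%, so on this scale the groups overlapped. In AhCk it ran from 3.62% to 4.66% and in AkCh from 2.90% to 4.98%, the latter in AkCh_20. Every AhCk library had a higher podocyte sum than any WT library. In AhCk against WT 6 of the 7 podocyte genes were higher, beside 8353 of 15902 genes tested. Their median log2 fold change was 0.23, beside 0.01 over all genes. None of the 7 passed the test there, and neither did Ehd3. Within AhCk the podocyte sum was highest in AhCk_38, the library with the lowest Ehd3. The part of podocyte or glomerular content in the rise of Ehd3 was not tested.

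**Figure D4:**
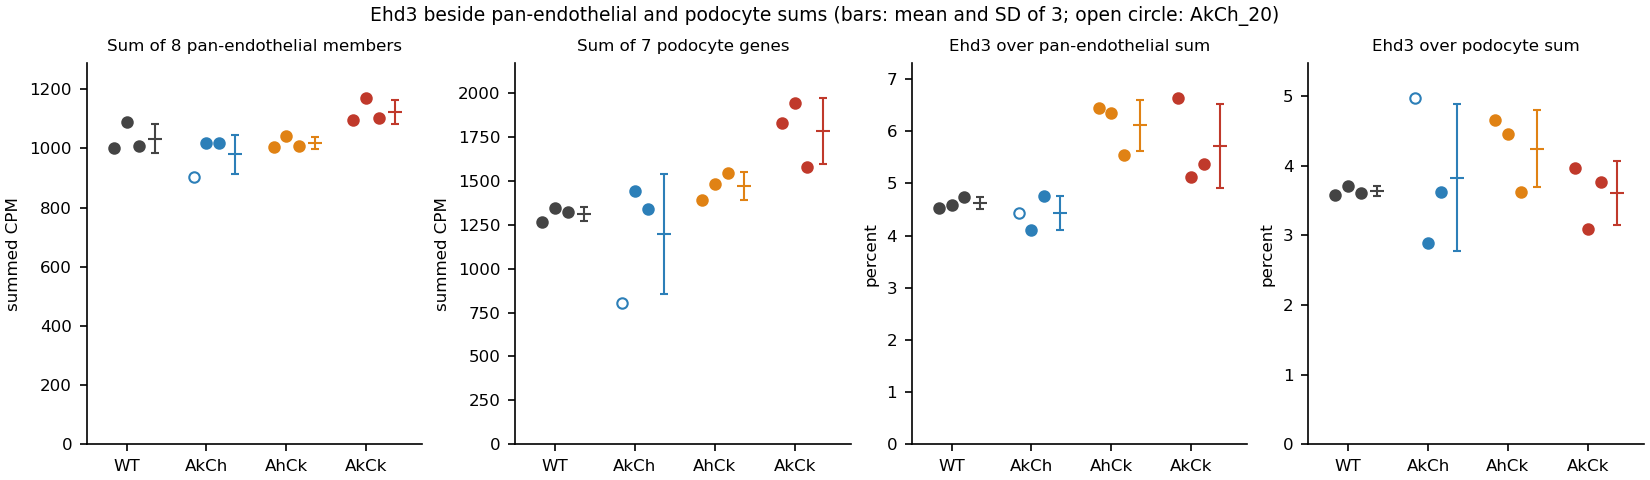
Summed CPM of the 8 pan-endothelial genes and of 7 podocyte genes, and Ehd3 as a percent of each sum, in each of the 12 libraries by genotype (open for AkCh_20), with the group mean and standard deviation. Against the pan-endothelial sum AkCk lies at 5.13% to 6.64% and WT at 4.54% to 4.74%, while against the podocyte sum these groups overlap.

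In AkCk against WT, 5 of 7 podocyte genes rose and none fell, with a median log2 fold change of 0.48. Podxl, the sialomucin of podocyte foot processes, rose by 0.50 (SE 0.10, adjusted p = 0.0239). Its call held in 8 of 16 alternatives. It was lost without WT_37, WT_55, AkCk_24 or AkCk_27 (adjusted p = 0.0875, 0.0942, 0.0813 and 0.0538), and 0 of the 7 were called without WT_37, WT_55 or AkCk_24, and 3 without AkCk_27. On the 9 libraries with Xist as a covariate 0 of the 7 were called, with Podxl at 0.18 (adjusted p = 0.712). Podxl is also made by endothelium. Of 7 glomerular endothelial genes other than Ehd3, 1 rose (14.3%, against 6.31% of all genes) and none fell, while without WT_30 2 rose and 2 fell. The gene that rose was Pi16, with 3.45, 3.58 and 4.53 CPM in WT and 16.6, 11.1 and 8.13 CPM in AkCk (log2 fold change 1.63, adjusted p = 0.0106, and 0.0522 without WT_37). Which cells of the whole kidney gave the rise of Pi16 was not tested. The median of these 7 was 0.04, and the list was led by Fabp4, a fatty acid binding protein, at -0.11 (adjusted p = 0.429).

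Other pan-endothelial genes gave 4 of 22 that rose (18.2%, against 6.31% of all genes) and none that fell in AkCk against WT, with a median log2 fold change of 0.11. No test of the list was run. Without WT_30 5 rose and 1 fell, and without AkCk_27 3 rose and 1 fell. On the 9 libraries of 1 run with Xist as a covariate 1 of the 22 rose, Eng. Eng, a co-receptor for BMP9 and related ligands, had 134, 141 and 139 CPM in WT_30, WT_37 and WT_55 and 187, 193 and 191 CPM in AkCk_24, AkCk_27 and AkCk_29. The AkCk libraries were tightly grouped and all above WT, a log2 fold change of 0.46 (SE 0.06, adjusted p = 0.00639), past the threshold in 16 of 16 alternatives. Vwf, the clotting factor that endothelium and platelets store, had 13.1, 8.995 and 9.75 CPM in WT and 24.4, 29.6 and 21.0 CPM in AkCk, in the same order. Vwf rose by 1.24 (SE 0.18, adjusted p = 0.00729), in 15 of 16 alternatives. With Xist as a covariate on the 9 libraries its log2 fold change was 1.04 (adjusted p = 0.0562). Of 5 platelet genes 1 rose, Pf4, in 10 of 16 alternatives but not without WT_37, WT_55, AkCk_24 or AkCk_27 (adjusted p = 0.0860, 0.0509, 0.0649 and 0.0535), and the list had a summed CPM of 11.2 to 17.0 in WT and 17.8 to 25.2 in AkCk. She, an adaptor protein, rose by 0.45 and Mmrn2, a matrix protein of vessels, by 0.32 (adjusted p = 0.0102 and 0.0421), and Mmrn2 kept the threshold in 5 of 16 alternatives. It lost the call without WT_37, WT_55, AkCk_24, AkCk_27 or AkCk_29 (adjusted p = 0.141, 0.144, 0.0636, 0.0917 and 0.0778). In the fit with Xist on the 9 libraries, She was at 0.35 (adjusted p = 0.0919) and Mmrn2 at 0.15 (adjusted p = 0.378). In AhCk against WT 1 of the 22 rose, Vwf, at 19.1, 28.6 and 25.5 CPM in AhCk_38, AhCk_110 and AhCk_115 (log2 fold change 1.21, adjusted p = 0.0304), beside 0.836% of all genes that rose. This call held in 8 of 15 alternatives and was lost without WT_37, WT_55, AhCk_110 or AhCk_115 (adjusted p = 0.164, 0.139, 0.126 and 0.0995), and with the correction for GC content and length (0.0644).

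Among ligands and co-receptors of the VEGF, angiopoietin and apelin pathways, 6 of 15 rose and none fell in AkCk against WT, with a median of 0.35. Over all genes tested, 6.31% rose and 7.40% fell. Of the 15, 2 rose without WT_37 or without WT_55, 3 without AkCk_24 or without AkCk_29, and 4 rose and 1 fell without AkCk_27. With all 12 libraries in the fit 1 of the 15 rose. On the 9 libraries of 1 run 2 rose, with or without Xist as a covariate. Figf, which encodes VEGF-D, a ligand of Flt4, had 19.2, 24.5 and 21.8 CPM in WT_30, WT_37 and WT_55 and 46.8, 51.0 and 41.2 CPM in AkCk_24, AkCk_27 and AkCk_29. Every AkCk library was well above every WT library, a log2 fold change of 1.08 (SE 0.12, adjusted p = 0.00317), past the threshold in 16 of 16 alternatives. Svep1, a matrix protein needed by lymphatics, rose by 0.92 (adjusted p = 0.0106, and 0.0680 with all 12 libraries in the fit). From RNA of whole kidneys, the cells behind the rises of Figf and Svep1 were not tested. Apln, the ligand of the apelin receptor, rose by 0.60 (adjusted p = 0.0138). The call of Apln held in 10 of 16 alternatives and was lost without WT_37, WT_55 or AkCk_24 (adjusted p = 0.0632, 0.0544 and 0.0530). Apln was at 0.35 (adjusted p = 0.327) on the 9 libraries of 1 run with Xist as a covariate. The receptor itself, Aplnr, rose by 0.35 (adjusted p = 0.0289), and the neuropilin Nrp2 by 0.44 (adjusted p = 0.0491). Going by which of the 15 kept their calls, Aplnr lost its call without WT_37, WT_55, AkCk_24, AkCk_27 or AkCk_29. Aplnr also lost it with all 12 libraries or the 9 of 1 run in the fit. The call of Nrp2 held in 7 of 16 alternatives, and its fold change was -0.012 on the 9 libraries of 1 run with Xist as a covariate. It was lost without WT_37, WT_55, AkCk_27 or AkCk_29 (adjusted p = 0.148, 0.1603, 0.126 and 0.108). Angpt4 was near 1 to 3 CPM and rose by 0.88 (adjusted p = 0.0483), with 5 of 16 alternatives past the threshold. Without WT_30, WT_37, WT_55, AkCk_24 or AkCk_29 its adjusted p was 0.0672, 0.116, 0.159, 0.144 and 0.0916. Vegfa, the ligand of Kdr and Flt1, was at -0.28 on the log2 scale (adjusted p = 0.110), and Angpt1, the ligand that activates Tek, at 0.02.

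The arterial list was mixed. Of 11 arterial genes tested, Acvrl1 and Gja5 rose and Cxcr4 fell, with a median of -0.15. For this and the next lists, 6.31% of all genes tested rose and 7.40% fell. Without WT_37, WT_55, AkCk_24 or AkCk_27, 1 of the 11 rose and none fell. Acvrl1, a receptor that works with Eng, had 46.7, 47.9 and 44.7 CPM in WT and 72.6, 74.2 and 60.5 CPM in AkCk (log2 fold change 0.57, adjusted p = 0.0101). Gja5, a connexin of arterial endothelium, rose by 0.51 and Cxcr4, a chemokine receptor, fell by 0.70 (adjusted p = 0.0415 and 0.0187), in 8 and 9 of 16 alternatives. Both lost the call without WT_37, WT_55, AkCk_24 or AkCk_27, with an adjusted p of 0.131, 0.140, 0.118 and 0.0989 for Gja5 and of 0.0825, 0.0737, 0.0638 and 0.0536 for Cxcr4. Cxcr4 was at -0.20 (adjusted p = 0.720) on the 9 libraries of 1 run with Xist as a covariate. Cxcr4 is also expressed in cap mesenchyme, whose 5 genes gave 3 that fell and none that rose in AkCk. The count was 1 without WT_37, WT_55, AkCk_24 or AkCk_27 and 5 without AkCk_29, and it was 0 on the 9 libraries with Xist as a covariate. Of 5 venous and lymphatic genes tested, 1 rose, and 3 without WT_30. Lyve1, a hyaluronan receptor of lymphatic endothelium and of some macrophages, had 15.8, 9.80 and 8.74 CPM in WT and 36.6, 38.3 and 39.6 CPM in AkCk, a log2 fold change of 1.74 (SE 0.21, adjusted p = 0.00428). Of 4 macrophage genes 3 rose, and 2 without WT_37, WT_55, AkCk_24 or AkCk_27, with a summed CPM of 47.6 to 53.7 in WT and 81.0 to 110.04 in AkCk, and their part in the rise of Lyve1 was not tested.

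**Figure D5:**
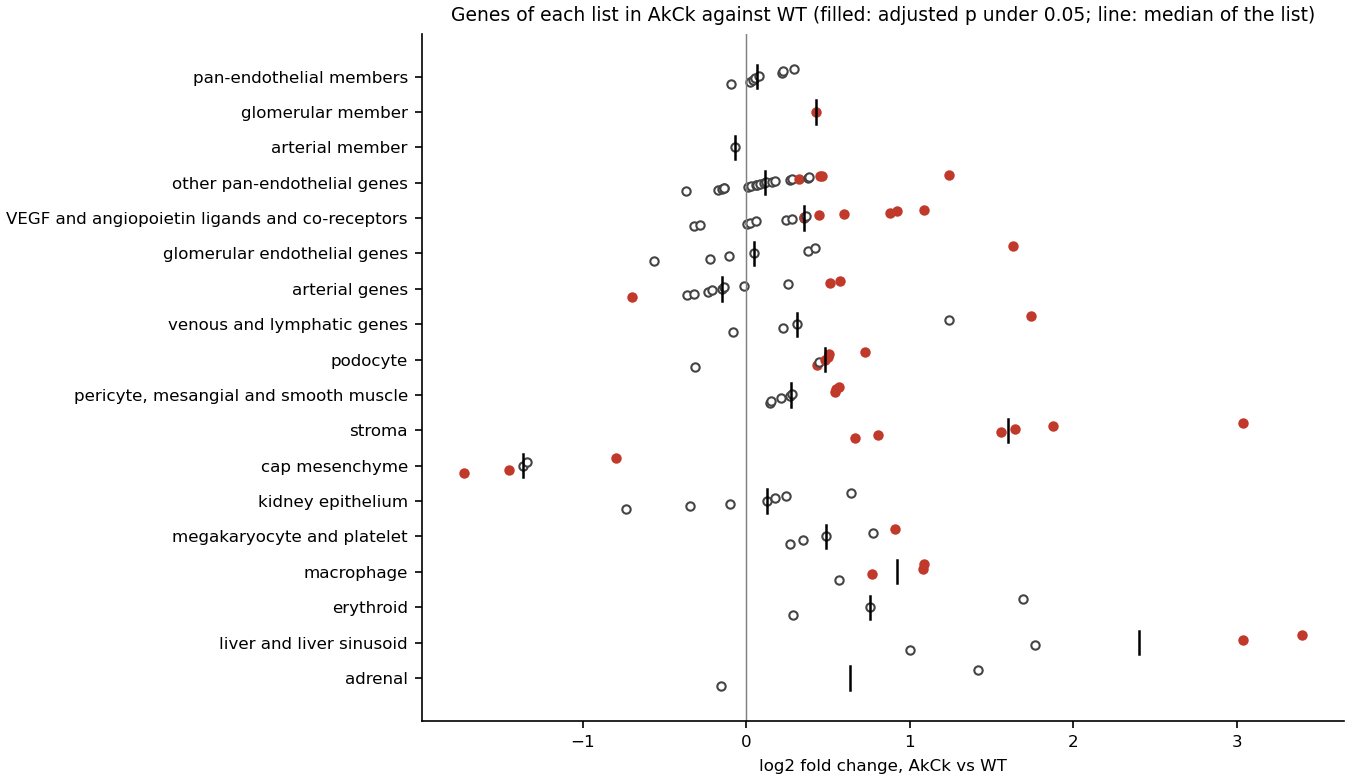
Log2 fold change in AkCk against WT of each gene in each list, with the median of the list as a line and genes past the threshold filled. The 8 pan-endothelial genes have a median of 0.06, podocyte genes 0.48 and stromal genes 1.60.

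The other cell type lists were given for AkCk against WT, and stroma and liver also for AhCk. Stromal genes, led by Col3a1, rose in 6 of 6, with a median of 1.60 and a summed CPM of 2523 to 2695 in WT and 7318 to 8875 in AkCk. Pericyte, mesangial and smooth muscle genes, led by Acta2, gave 3 of 8 that rose and a median of 0.27. Without WT_55 none of the 8 rose, with Acta2 at an adjusted p of 0.0538, and without WT_37 1 did. None of them rose on the 9 libraries of 1 run, and 1 did with Xist as a covariate added. Medians were 0.13 in kidney epithelium, led by Cdh16, and 0.76 over 3 erythroid genes tested, none of which passed the test. Of the adrenal genes 2 were tested, at -0.15 and 1.42, and neither passed. Their list summed to 4.42, 4.64 and 11.0 CPM in AkCk_24, AkCk_27 and AkCk_29, so AkCk_29 alone was above WT. Liver genes, led by Alb, gave 2 of 4 that rose, 1 without AkCk_24, none without WT_37 or WT_55 and none on the 9 libraries of 1 run, and summed to only 7.47 to 23.98 CPM in AkCk. The summed endothelial CPM stood at 1000.1 to 1089 in WT and 1096 to 1171 in AkCk, a far smaller difference than that of stroma. In AhCk against WT 2 of 6 stromal genes rose, Lum by 1.08 and Col3a1 by 0.52 (adjusted p = 0.0196 and 0.0375). These calls held in 10 and 7 of 15 alternatives. Stromal genes summed to 3364 to 4603 CPM in AhCk. Liver genes summed to 6.59 to 35.7 CPM there, against 1.75 to 4.62 CPM in WT, and none of them passed the test.

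Among themselves the 8 pan-endothelial genes did not move as 1 unit across libraries. Over 28 pairs the median Pearson r of log2 CPM was 0.45 over 12 libraries and 0.28 without AkCh_20, with 17 and 22 of the pairs above 0. Ehd3 had a median r of 0.54 with the 8 genes over 12 libraries and 0.27 without AkCh_20, and Sox17 of -0.42 and 0.15. The sign for Sox17 thus rested on AkCh_20. These r values are a description over libraries that share genotype, run and sex. Of 14214 genes ranked, those most like the pan-endothelial mean over 12 libraries included Bckdha (r = 0.94), Clec14a (0.92), Slc2a1 (0.92), Inpp5d (0.91), Srpx2 (0.91), Cd151 (0.91), 3632451O06Rik (0.91), Gnb4 (0.91) and Sdf4 (0.90). None of the 10 was among the 10 most like over the 11 libraries without AkCh_20, a list led by Plod1 and Oaf. Adamts14 (0.92), Rab43 (0.90) and Dlgap3 (0.90) were most like Ehd3. Of these Dlgap3 was also among the 3 most like without AkCh_20, where Adamts14 ranked 9 and Rab43 ranked 16. Dlgap4 (0.94), Lyl1 (0.92) and 9430023L20Rik (0.92) were most like Sox17. Without AkCh_20 they left the top 3 but ranked 4, 8 and 6 (r = 0.89, 0.87 and 0.88).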

How the data were processed

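RNA of whole E18.5 kidneys was measured in 12 libraries, 3 for each of 4 genotypes, grouped by their labels. The authors aligned reads to mm10, dropped those with more than 1 position, and made gene values in Strand NGS (version not given in the sources used here). The deposited values are expected counts per gene before normalization, with fractions, and were rounded here. The authors' normalized values are on the log2 scale, centred on each gene's median. No comparison columns of the authors were used.

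Genes were filtered by filterByExpr (minimum count 10, minimum total count 15), normalized by TMM and tested by the quasi-likelihood test of edgeR 4.0.16 in R 4.3.3, and p-values were adjusted by the Benjamini-Hochberg method across the whole table. Comparisons were AkCk, AkCh and AhCk against WT, and AkCk against AkCh, each on its 6 libraries. The SE of a fold change was its unshrunken size divided by the square root of the F statistic. Replicates were compared in pairs by a chi-square per gene, which was 275 and 299 for AkCh_20 with the other AkCh libraries and 15.7 to 73.6 for the other pairs. Exon lengths and GC content came from GENCODE release 21 and promoters from RefSeq (GRCm38.p6).

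Named were all 10 genes, up to 5 genes of each list past the threshold with the largest change, the most abundant gene of a marker list, the mutated genes, and the genes most like the 10 (mean of at least 1 CPM). Aplnr, Vegfa, Angpt1, Fabp4, Plod1 and Oaf fall outside this rule and were named after their values were seen. Not every gene that meets the rule is reported here. The 10 genes and the lists were chosen with earlier results of these data known.

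Alternatives were library size alone, RLE factors, DESeq2 1.42.0, every gene with at least 1 count, all 12 libraries or the 9 of 1 run in the fit, these wider fits with Xist as a covariate (prior count 0.5; 9 libraries, or 12 for AhCk), limma 3.58.1 on the authors' log2 values, a correction in 20 bins of GC content and length, and leaving out each library. The steps were tested on simulated data. Plots were drawn with matplotlib 3.10.9.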

Additional observations from a re-analysis of the deposited data

How the results depend on the processing

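In AkCk against WT, Ehd3 kept its direction in 16 of 16 alternatives and its call in 9. It lost the call with the 9 libraries of 1 run (adjusted p = 0.0819), also with Xist as a covariate added to them (0.102, log2 fold change 0.44), with limma (0.0601) and with the correction for GC content and length (0.0549), and without WT_37, WT_55 or AkCk_24. RLE factors put 3 of the 10 genes past the threshold (Ehd3, Pecam1 and Kdr), beside 2144 of all genes (13.5%), as did DESeq2, which called 3312 of 16346 genes (20.3%). All 12 libraries in the fit called 1190 genes, the 9 libraries of 1 run 690 genes and 0 of the 10, the same 9 with Xist as a covariate 775 and 0, and limma 1196 and 0. Leaving out each library in turn called 535 to 3386 genes and 0 to 2 of the 10. A fit on all libraries but AkCh_20, in AkCk and AhCk against WT, was chosen after seeing the data and put 3 of the 10 past the threshold in AkCk, beside 3224 of all genes (19.6%). The correction was planned for AhCk against WT and added to the other comparisons after seeing the data, as were the likeness over 11 libraries, the groups without overlap when AkCh_20 was left out and the levels per kilobase of the longest transcript. In AkCk against WT the correction put 1 of the 10 past the threshold, Pecam1 (adjusted p = 0.0440), and not Ehd3, beside 2380 of all genes (15.0%).

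With library size only, the pan-endothelial median in AkCk against WT was 0.0015, Tek -0.012, Tie1 -0.023 and Emcn -0.043. With the 9 libraries and Xist the median was -0.0064, Sox17 minus it 0.12, Kdr -0.070, Flt1 -0.20, Tek -0.10, Tie1 -0.14, Plvap 0.057, Sox17 0.11 and Nrp2, called in the report, -0.012. Leaving out each library gave Emcn from -0.055 to 0.071, Tek from -0.0049 to 0.10, Tie1 from -0.0072 to 0.097 and Sox17 from -0.17 to 0.041.

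In AkCh against WT, DESeq2 called 18 genes, all 12 libraries in the fit 2, limma 1, and leaving out a library 0 to 8. The 9 libraries of 1 run with Xist as a covariate gave a pan-endothelial median of -0.34, Ehd3 minus it 0.23 and Sox17 0.15. Plvap was -0.069 with library size only and -0.020 with the correction for GC content and length. Leaving out each library gave Plvap from -0.17 to 0.12, Sox17 from -0.30 to 0.13, Pecam1 from -0.22 to 0.096, Kdr from -0.31 to 0.12, Flt1 from -0.35 to 0.057 and Emcn from -0.11 to 0.21. Leaving out AkCh_20 gave 1 end of each of these 6 ranges.

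In AhCk against WT, DESeq2 called 1284 genes (8.17%) and 2 of the 10, all 12 libraries in the fit 149, the same 12 with Xist as a covariate 134, limma 104, the correction for GC content and length 104, and all libraries but AkCh_20 976 (5.93%) and 2. Leaving out a library called 60 to 549 genes and 0 to 1 of the 10. The 12 libraries with Xist gave a pan-endothelial median of -0.044, Pecam1 -0.059, Cdh5 -0.020, Flt1 -0.029 and Tie1 -0.0015. The correction gave a median of -0.052, Cdh5 -0.055, Flt1 -0.14 and Tie1 -0.049. Cdh5 was -0.00083 with all libraries but AkCh_20. Leaving out each library gave Cdh5 from -0.039 to 0.043 and Pecam1 from -0.022 to 0.067.

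In AkCk against AkCh, DESeq2 called 489 genes (3.01%) and 1 of the 10, all genes with at least 1 count 1 gene, all 12 libraries in the fit 540 and 1, the 9 libraries of 1 run 181, the same 9 with Xist as a covariate 701 and 1, the correction 2, and leaving out a library 0 to 687. Emcn was 0.030 with the correction. Leaving out each library gave Emcn from -0.18 to 0.15, Plvap from -0.20 to 0.095 and Sox17 from -0.19 to 0.25, with the upper end of each without AkCh_20.

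In all these cases the cause was not tested. No paired analysis was run, because the labels give no litter or other link between libraries of different groups. With 3 libraries a group, differences under the spread between replicates were not detectable, and sex and, for AhCk, run differ between groups.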
